A study of Pan paniscus with 11 samples.

Results

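Growth factors and the receptor tyrosine kinases that bind them were examined in cultured bonobo (Pan paniscus) fibroblasts. The genes were taken by symbol from the probe annotation: 6 receptor genes (PDGFRA, PDGFRB, EGFR, FGFR1, IGF1R and MET) and 4 ligand genes (FGF2, FGF7, HGF and VEGFA). These 10 of 8226 named genes carry 30 of the 12558 probe sets on the array that are not controls. A further probe set annotated to both FIP1L1 and PDGFRA was not used.

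A receptor tyrosine kinase is a membrane protein that works as a pair and phosphorylates itself inside the cell when its ligand binds. It then recruits adaptors that switch on the Ras to MAP kinase and PI3 kinase to AKT relays. Fibroblasts are known for their growth response to platelet-derived growth factor through PDGFRA and PDGFRB. They are also known as senders, since FGF7 and HGF made by fibroblasts act on neighbouring epithelial cells and VEGFA acts on endothelial cells.

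The 11 cultures were profiled, with 1 Affymetrix array each. The single culture taken at 50% confluence was a second culture of male line 1, and its standard culture was its counterpart. Male lines 1 to 5 were derived from animals of 4, 2, 12, 17 and 19 years. Female lines 1 to 5 were derived from animals of 9, 2, 4, 20 and 20 years. All animals are labelled as normal, no agent or genetic change is given, and each line stands for 1 animal. The labels leave the tissue site, the passage and the density of the standard cultures unstated, and they do not separate biological from technical spread, which the p-values below measure together.

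Values are intensities, the brightness summarised for a probe set, with low values raised to a floor of 100. The share of probe sets above the floor was 52.1% to 60.9% per array. All 16 fibroblast markers gave signal in each of the 11 cultures, whereas markers of endothelial cells, melanocytes and blood cells had a median of 100. Of 8 blood markers, CD3E and CD68 were still above the floor in all 11 cultures and HBB in 9. Of 7 melanocyte markers, SOX10 was above it in 9, MITF in 7, and TYR and MLANA in 6 each. Of 11 keratinocyte and epithelial markers, 3 (KRT7, KRT8 and KRT10) were above the floor in all 11 cultures, KRT1 in 10 and DSP in 9, and the list's median was 101. Of 10 smooth muscle and pericyte markers, 3 (ACTA2, TAGLN and SMTN) were above it in all 11, with sums over the list of 11618 to 60662 in male and 22959 to 39008 in female lines. The 18S ribosomal RNA controls stood at 1508 to 2611 for the 50% confluence culture, at 146 to 313 for male line 4 and at 100 to 171 elsewhere. The ACTB 3′ to 5′ ratio, a measure of RNA integrity, was 0.669 in the 50% confluence culture and 2.27 in male line 4, with 0.853 to 1.44 in the others. Intensities of different probe sets depend on their probes, so levels were compared between cultures and not between genes. In such bulk RNA, fewer cells that express a gene and less of its RNA per cell cannot be told apart.

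Of the 30 probe sets, 14 were above the floor in all 11 cultures, representing 7 of the 10 genes. EGFR, MET and HGF had no such probe set. Another 9 probe sets were above the floor in fewer than 5 cultures and were not tested, among them both HGF probe sets. The other 21, from 9 genes, entered the fit over 7333 probe sets, 7 of them at the floor in some cultures. Below, the probe set of highest mean stands for a gene unless another is named.

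**Figure D1:**
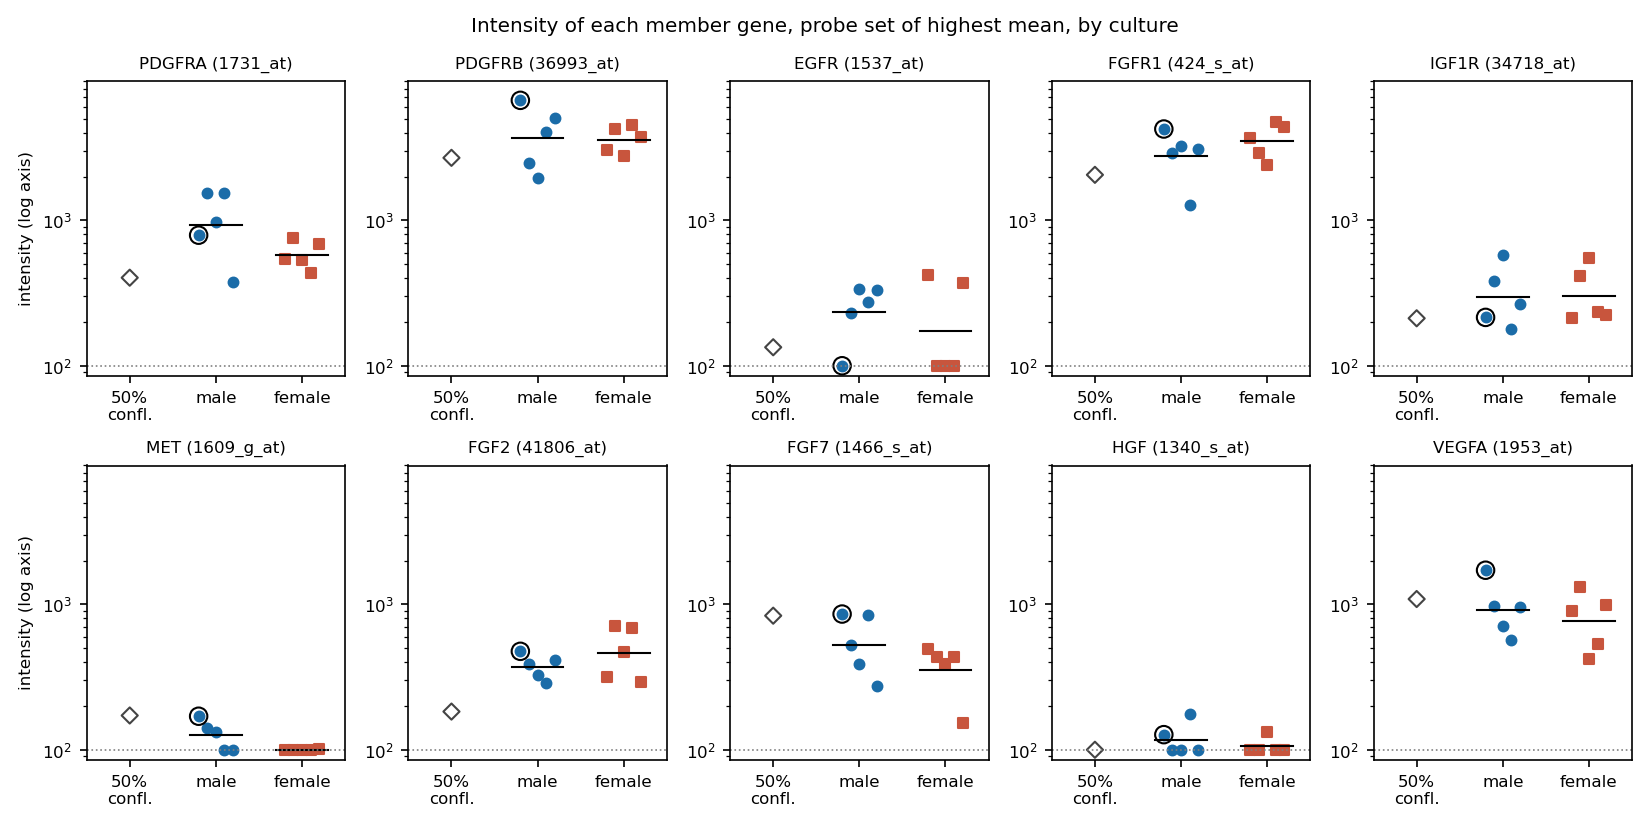
Intensity (log axis) of the 10 genes, by the probe set of highest mean. Each panel shows the 50% confluence culture (diamond), the 5 male lines (circles, the standard culture of male line 1 ringed) and the 5 female lines (squares), with bars at the geometric mean of each sex and a dotted line at the floor of 100. Male and female lines overlap in every panel, and FGF2 at 50% confluence (183) lies below all 10 standard lines.

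PDGFRB, the receptor for the B and D chains of platelet-derived growth factor, was high in all cultures. It read 6679, 2479, 1951, 4042 and 5015 in male lines 1 to 5, against 3049, 4219, 2747, 4511 and 3718 in female lines 1 to 5. Male lines held both the highest and the lowest value, and the female range lay inside the male one. The second probe set, 1771_s_at, ranked the lines alike (Pearson's r = 0.94, permutation p = 1.3e-04; Spearman's rho = 0.94, permutation p = 2.3e-04; r = 0.84 without male lines 1 and 3).

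PDGFRA, which also binds the A and C chains and marks much of the embryonic mesenchyme, read 790, 1549, 971, 1544 and 377 in male lines 1 to 5, against 546, 758, 534, 434 and 686 in female lines 1 to 5. Of the male lines, 4 of 5 were above all 5 female lines, and male line 5 was below them all. Its probe set 1988_at read 614 in male line 2, and the remaining 9 lines lay between 113 and 194. The third, 1987_at, reached at most 154 in these lines, and 36157_at was above the floor only in female line 3 (125). Across the 10 lines PDGFRA and PDGFRB were not shown to vary together (r = -0.33, permutation p = 0.357; rho = -0.41, permutation p = 0.249).

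FGFR1, a receptor for FGF2 and many other fibroblast growth factors, read 4242, 2894, 3226, 1275 and 3107 in male lines 1 to 5, against 3689, 2891, 2411, 4705 and 4374 in female lines 1 to 5. Male line 4, the line with the high 3′ to 5′ ratio, stood lowest. The SD on the log2 scale was 0.32 when it was left out, against 0.55 with it, and the part of RNA quality in this value was not tested. Probe set 2056_at also had its lowest value in male line 4 (813, against 939 to 2075 in the other lines), but 2057_g_at read 1444 there, within its range of 897 to 1861. The fourth, 36168_at, varied little, from 477 to 699. Only 2056_at was shown to follow the leading probe set (r = 0.84, permutation p = 3.9e-04).

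IGF1R, the receptor through which insulin-like growth factors promote growth and survival, was above the floor in all 11 cultures by 34718_at. Male lines 1 to 5 read 215, 383, 580, 180 and 264, against 214, 413, 547, 233 and 222 in female lines 1 to 5. One male line (3) and 1 female line (3) stood above 500, and both sexes reached down to near 200. Probe sets 31335_at (at most 177) and 1335_at (137 in male line 5 and the floor elsewhere) gave little signal.

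EGFR, the receptor for epidermal growth factor and its relatives, was near the lower limit and divided the lines. It read 100, 229, 335, 275 and 334 in male lines 1 to 5, against 418, 100, 100, 100 and 368 in female lines 1 to 5. Signal was present in 4 of 5 male lines and 2 of 5 female lines. The other EGFR probe set, 37327_at, was above the floor in 4 lines (109 in male line 2, 169 in male line 4, 112 in male line 5 and 188 in female line 5), all of which also had signal by the first. Female line 1 (418 by the first, the highest) and male line 3 (335) were at the floor by 37327_at.

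MET, the receptor for HGF, was barely detectable. Its probe set 1609_g_at read 170, 142, 132, 100 and 100 in male lines 1 to 5, against 100 in female lines 1 to 4 and 101 in female line 5. The 3 youngest male lines thus had signal and the 2 oldest had none. This pattern was not seen with the other 3 MET probe sets. Of these, 35684_at was above the floor in male line 3 (168) and female lines 4 and 5 (113 and 127), 1812_s_at only in male line 4 (109) among the standard lines, and 1608_at in no culture.

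Among the ligands, FGF2, a fibroblast growth factor that lacks a classical secretion signal and is stored on heparan sulphate in the matrix, read 475, 386, 329, 286 and 414 in male lines 1 to 5, against 316, 705, 469, 691 and 294 in female lines 1 to 5. Female lines 2 and 4 were above all others, and the remaining lines overlapped. Its probe set 1593_at was also highest in female line 2 (508) but was at the floor in female line 1, and 1828_s_at was highest in female line 4 (288). No pair of the 3 FGF2 probe sets was shown to vary together (r = 0.21 to 0.63, permutation p = 0.052 to 0.558).

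FGF7, also called keratinocyte growth factor, read 857, 529, 389, 842 and 276 in male lines 1 to 5, against 493, 435, 387, 431 and 153 in female lines 1 to 5. Male lines 1 and 4 were above all others, and female line 5 was the lowest. These 2 male lines were also above the floor by both weaker probe sets, 1380_at (168 and 180) and 32126_at (139 and 213). So was female line 1 (119 and 107), which was not among the highest by the first probe set. HGF, the ligand of MET, was above the floor by 1340_s_at in only 3 of 11 cultures, male line 1 (127), male line 4 (177) and female line 3 (132). The other HGF probe set, 1095_s_at, was at the floor in all 11. The 3 lines with HGF signal were also the only standard lines above 150 by the FGF7 probe set 1380_at, a coincidence noticed in the values and not tested. The 50% confluence culture of male line 1 read 168 by 1380_at with HGF at the floor.

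VEGFA, the main growth factor for endothelial cells, read 1715, 973, 711, 565 and 951 in male lines 1 to 5, against 895, 1317, 421, 532 and 986 in female lines 1 to 5. Male line 1 and female line 2 were highest, and female line 3 was lowest. Probe set 36100_at gave a like order (r = 0.90, permutation p = 4.1e-04; rho = 0.90, permutation p = 9.2e-04; r = 0.86 without male line 1 and female line 3), with male line 1 again highest (1416). The third VEGFA probe set, 36101_s_at, reached at most 213. Over the 10 lines, 12 pairs of probe sets of 1 gene were compared, a check chosen after the values were seen. After Benjamini-Hochberg adjustment over the 12, the PDGFRB pair (adjusted p = 0.00156), the VEGFA pair and the FGFR1 pair of 424_s_at with 2056_at (adjusted p = 0.00164 each, by permutation) passed for Pearson's r, and the other 9 did not.

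Over the 10 lines, 4 pairs of genes were compared. FGF2 and its receptor FGFR1 gave r = 0.31 (permutation p = 0.392; rho = 0.12, permutation p = 0.758), and r = 0.23 without female lines 2 and 4. VEGFA and FGF2 gave r = 0.10 (permutation p = 0.790; rho = 0.16, permutation p = 0.657), and r = 0.14 without male line 1 and female line 3. EGFR and MET, both often at the floor, gave r = -0.16 (permutation p = 0.623; rho = 0.02, permutation p = 0.969), and r = 0.14 without male line 1 and female line 2. For PDGFRA and PDGFRB, given above, r was -0.31 without male lines 2 and 4. The lowest adjusted p over the 4 pairs was 0.785, and no relation was shown. HGF was at the floor in too many lines to be paired with MET or FGF7.

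The spread over the 10 standard lines was set beside that of 5370 genes, whose median SD was 0.43 log2. The 9 tested growth factor and receptor genes had a median SD of 0.61. EGFR was the most variable, with an SD of 0.90 and a position above 96.5% of genes, but 4 of its lines were at the floor and its SD was 0.42 with a floor of 200. FGF7 followed with an SD of 0.73 and a 5.601-fold range, and its SD was 0.53 without female line 5. PDGFRA (0.70), VEGFA (0.62) and IGF1R (0.61) ranged over 4.11-fold, 4.07-fold and 3.22-fold. PDGFRB had 0.53, and FGF2 (0.47) and MET (0.28) were the least variable, MET with 6 of 10 lines at the floor. Since genes are ranked after a filter on low values, these ranks describe the lines and are not a test.

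The first comparison asked whether male and female lines differed. None of the 9 genes passed over the 7333 probe sets (limma with age as covariate, Benjamini-Hochberg adjusted p = 0.9999 for each). Across the array 2 probe sets passed, 0.0273%. Estimates were higher in males for 6 genes and lower for 3, with a median log2 difference of 0.25 by the probe sets that stand for them, against 0.00 over all tested probe sets. By all 21 probe sets of the group, 11 were higher and 10 lower in males. The count of genes was 5 higher and 4 lower with array weights. PDGFRA was nearest, at 1046 ± 505 in males and 592 ± 129 in females (SD, n = 5 each) and a log2 difference of 0.67 ± 0.33 (SE). FGF7 averaged 579 ± 263 in males and 380 ± 132 in females (SD, n = 5 each), a log2 difference of 0.57 ± 0.36 (SE). FGFR1 averaged 2949 ± 1070 in males and 3614 ± 967 in females (SD, n = 5 each), a log2 difference of -0.35 ± 0.30 (SE), and FGF2 stood at -0.32 ± 0.30 (SE).

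These differences were within the spread between lines. PDGFRA had a difference of 0.996 without male line 5 and 0.42 without male line 4, and FGFR1 had -0.03 without male line 4. FGF7 had 0.31 without male line 4 and 0.32 without female line 5, and FGF2 had -0.09 without female line 4. Of 7 genes with several tested probe sets, 4 had 1 direction in all of them: FGFR1 and FGF2 lower, and PDGFRA and FGF7 higher in males. PDGFRB (0.03 and -0.16), IGF1R (-0.04 and 0.01) and VEGFA (0.25, 0.25 and -0.03) had both signs. Of the 21 probe sets, 0 had an unadjusted p under 0.05 and in 0 were all male lines apart from all female lines. Over the array these shares were 2.33% and 0.286%.

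**Figure D2:**
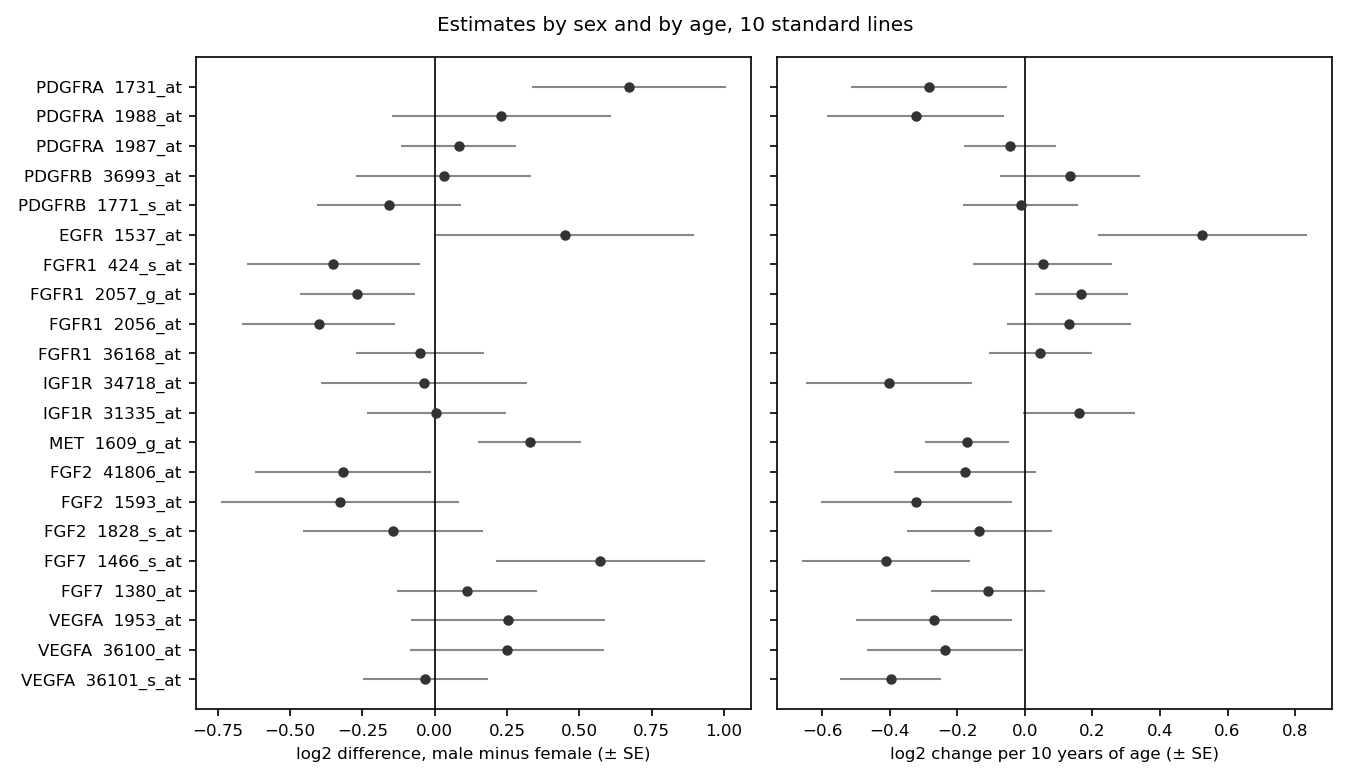
Estimates for the 21 tested probe sets, with SE as bars. The left panel gives the log2 difference of male minus female lines and the right panel the log2 change over 10 years of age, both from 1 limma fit over the 10 standard lines; none passed after adjustment.

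The second comparison followed age. No gene of the group passed (limma with sex as covariate, adjusted p = 0.999 for each), and 0% of the array's probe sets passed at a threshold of 0.05. Estimates per 10 years were negative for 6 of the 9 genes, with a median of -0.18, against 0.00 over all tested probe sets. FGF7 had a log2 slope of -0.41 ± 0.25 (SE) per 10 years, which was -0.19 without female line 5, and IGF1R had -0.40 ± 0.24 (SE). EGFR had the most positive slope, 0.53 ± 0.31 (SE), which was 0.26 with a floor of 200 and 0.86 without female line 4. By EGFR 1537_at, 4 of the 5 lines from animals of 12 years or more had signal (275 to 368), the exception being female line 4, as did 2 of the 5 from animals of 9 years or less (female line 1 and male line 2). PDGFRA (-0.28), VEGFA (-0.27), FGF2 (-0.18) and MET (-0.17) had smaller negative slopes, and PDGFRB (0.13) and FGFR1 (0.05) positive ones. Single lines weighed heavily on these. Without 1 line, the slope ran from -0.43 to -0.04 for PDGFRA (without male line 4 and male line 5), from -0.47 to -0.12 for VEGFA (without female line 3 and female line 2), and from -0.37 to -0.05 for FGF2 (without female line 4 and female line 5). For PDGFRB it ran from 0.02 without male line 2 to 0.31 without male line 1.

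By all 21 probe sets of the group, 14 had a negative and 7 a positive slope. Of 7 genes with several tested probe sets, 5 had 1 direction by age in all of them. IGF1R (-0.40, and 0.16 by the weak 31335_at) and PDGFRB (0.13 and -0.01) had both signs. By probe set, 1 of 21 had an unadjusted p under 0.05 for age, against 3.42% over the array. It was the weak VEGFA probe set 36101_s_at (-0.40 ± 0.15, SE; limma, adjusted p = 0.999), which was above the floor in male lines 2 and 3 and female lines 2 and 3, from animals of 2, 12, 2 and 4 years.

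**Figure D3:**
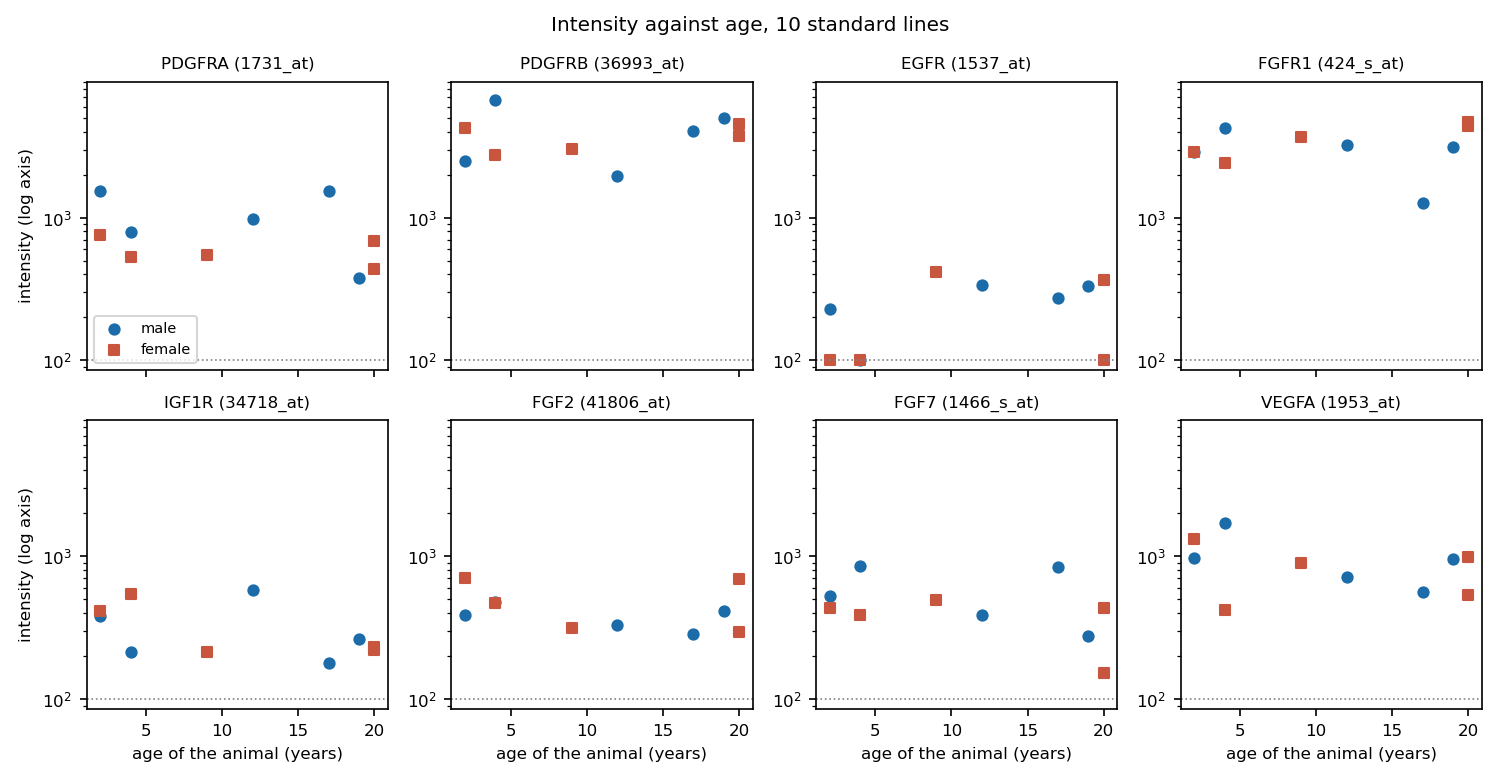
Intensity (log axis) against the age of the animal in years for 8 of the genes in the 10 standard lines, male lines as circles and female lines as squares, with a dotted line at the floor of 100. EGFR is at the floor in 4 lines, from animals of 2, 4, 4 and 20 years, and FGF7 is lowest in a female line of 20 years (153).

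Male and female lines were also compared in their age slopes. None of the 9 genes passed (limma, lowest adjusted p = 0.973), and 0.0136% of the array's probe sets did. FGFR1 had the lowest unadjusted p, with a male slope minus female slope of -0.87 ± 0.36 (SE) per 10 years (limma, adjusted p = 0.973), and -0.51 without male line 4. By its other probe sets the FGFR1 value was -0.66 (2056_at), -0.26 (36168_at) and -0.09 (2057_g_at). Among the 21 probe sets, PDGFRA 1988_at was the other one under 0.05 (-1.01 ± 0.47, SE), the probe set whose 1 high value was that of male line 2. These 2 of 21 are to be read beside 4.84% over the array.

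The third comparison set the 50% confluence culture of male line 1 against its standard culture. There was 1 culture per state, so the values have no replicate check and no test. Of the 9 genes, 8 were above the floor in both cultures, and 3 of these were over 2-fold lower at 50% confluence, against 4.75% of the 6147 probe sets above the floor in both. None was over 2-fold higher, against 4.88%. The median log2 difference of the 8 genes, each by 1 probe set, was -0.81, against 0.01 over the 6147 probe sets. By all 19 probe sets of the group above the floor in both cultures, the middle value was -0.17 (FGFR1 2057_g_at). As deposited 7 of the 8 were lower, 6 with quantile normalization and 8 with median centring, where FGF7, IGF1R and MET lay close to 0.

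PDGFRB read 2688 at 50% confluence and 6679 in the standard culture, a 2.48-fold lower value, and 1771_s_at read 2133 and 5548. The summed markers of smooth muscle and pericytes, cells that also use PDGFRB, were 39288 at 50% confluence and 39456 in the standard culture. Those of fibroblasts were 143851 and 181093, and those of keratinocytes and epithelium 5230 and 4117, and their part in the differences was not tested. The standard culture of male line 1 was the highest of the 10 lines by both probe sets, and the 50% confluence culture lay inside their range by 36993_at (1951 to 6679). PDGFRA read 403 at 50% confluence and 790 in the standard culture, just under 2-fold lower, but 1988_at (243 and 139) and 1987_at (206 and 133) were higher at 50% confluence. FGFR1 read 2054 at 50% confluence and 4242 in the standard culture by 424_s_at, and 941 and 1633 by 2056_at. In contrast, 36168_at read 813 and 481, with 813 above all 10 lines, and 2057_g_at differed little (1247 and 1403).

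The other receptors differed little or were near the floor. IGF1R read 212 at 50% confluence and 215 in the standard culture, and MET read 172 and 170. EGFR read 134 at 50% confluence and was at the floor in the standard culture, and by 37327_at it was at the floor in both.

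FGF2 was 2.60-fold lower at 50% confluence by 41806_at (183, against 475 in the standard culture), below all 10 standard lines, and 1.96-fold lower by 1593_at (123, against 241). In contrast, 1828_s_at had 449 at 50% confluence and 210 in the standard culture, 2.14-fold higher and above all 10 lines. VEGFA read 1087 at 50% confluence and 1715 in the standard culture by 1953_at, and 401 and 1416 by 36100_at, a 3.53-fold lower value that lay below all 10 lines. The standard culture of male line 1 was the highest of the 10 lines by both of these VEGFA probe sets. By 36101_s_at VEGFA had 167 at 50% confluence and was at the floor in the standard culture. FGF7 was alike in both cultures, with 835 at 50% confluence and 857 in the standard culture. HGF (1340_s_at) was at the floor at 50% confluence and read 127 in the standard culture.

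Over 19 probe sets of the group above the floor in both cultures, 12 were lower, 6 higher and 1 equal at 50% confluence, against 49.3% lower and 50.3% higher over the array. Of the 19, 5 were over 2-fold lower and 1 over 2-fold higher, against 4.75% and 4.88% over the array. Among the 19, 2 lay below all 10 standard lines and 4 above, against 6.77% and 10.8% over the array. In 4 of the 6 genes with several such probe sets, PDGFRA, FGFR1, FGF2 and FGF7, the probe sets differed in direction. PDGFRB and VEGFA were the 2 whose probe sets were all lower. Since 18S ribosomal RNA was highest, and the ACTB 3′ to 5′ ratio lowest, on the array at 50% confluence, these moved with the differences, and their part was not tested. The deposited floor was 90 on that array and 100 on the array of the standard culture. Both were floored at 100 before comparison, and the part of this difference in processing was not tested.

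**Figure D4:**
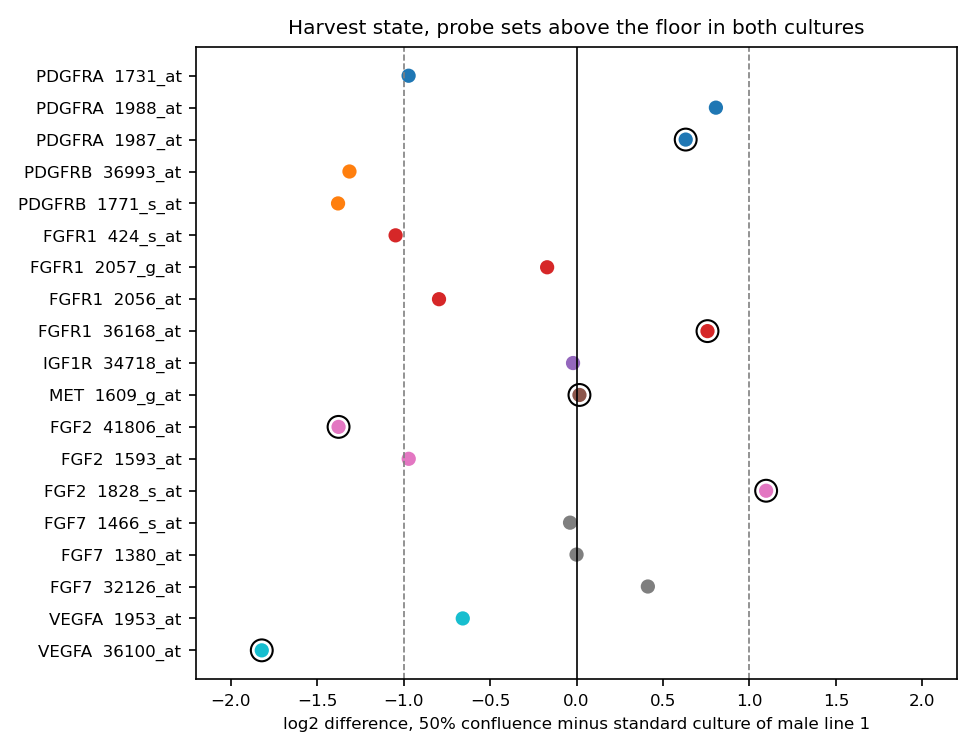
Log2 difference of the 50% confluence culture minus the standard culture of male line 1 for the 19 probe sets above the floor in both. Colours mark genes, dashed lines mark 2-fold, and rings mark 50% confluence values outside the range of the 10 standard lines. Both PDGFRB probe sets lie beyond -1, whereas those of FGF2 lie on both sides.

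Other genes of the pathway were taken from 7 lists, whose harvest counts are to be read beside the 49.3% lower, 50.3% higher and median of 0.01 over the array. Counts past 2-fold are to be read beside 4.75% lower and 4.88% higher over the array. Of 22 other growth factor ligands tested, 0 passed by sex or age. In the 15 above the floor in both cultures of male line 1, 1 was over 2-fold lower at 50% confluence and 0 higher, with a median log2 difference of -0.05. MDK, which encodes the heparin-binding factor midkine, read 107 at 50% confluence and 246 in the standard culture, below all 10 lines. GAS6, the ligand of the receptor AXL, read 17998 and 9354. PTN, the gene of the related pleiotrophin, was the most variable ligand (SD 0.92, from 138 to 1617 over the lines). MDK had the lowest unadjusted p by sex, with 112 to 403 in males and 283 to 854 in females, and did not pass (limma, adjusted p = 0.9999).

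Of 22 other receptor tyrosine kinases tested, 0 passed by sex or age. Among 17 above the floor in both cultures, 2 were over 2-fold lower and 1 over 2-fold higher at 50% confluence (median -0.06). NTRK2, a neurotrophin receptor gene, read 111 at 50% confluence and 353 in the standard culture, and the pseudokinase gene PTK7 read 1036 and 2190. ROR2, a receptor for WNT5A, read 683 and 284. ROR2 was also the most variable over the lines (SD 1.04, 100 to 787), followed by EPHB6 (SD 0.93). FGFR4 had the lowest unadjusted p by sex, with 100 to 270 in males and 165 to 465 in females, and did not pass (limma, adjusted p = 0.9999).

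The genes that relay the signal inside the cell had a median SD of 0.39 between lines over 30 tested genes, against 0.43 over all genes, and 0 passed by sex or age. RPS6KA3, a kinase downstream of the MAP kinases, read 772 at 50% confluence and 239 in the standard culture, above all 10 lines, and the phospholipase gene PLCG1 read 162 and 360, below all 10. The other 21 above the floor in both cultures differed by less than 2-fold. MAP2K1, the gene of a MAP kinase kinase, had 658 to 932 in males and 921 to 1465 in females, a log2 difference of -0.60 (limma, adjusted p = 0.9999). The lowest unadjusted p by age was that of PIK3CD, a gene near the floor (median 106.5 over the lines). Its log2 slope was 0.68 ± 0.21 (SE) per 10 years and did not pass (limma, adjusted p = 0.999).

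Feedback inhibitors, which damp receptor signalling once it is switched on, gave 0 calls by sex or age among 13 tested. Of 11 above the floor in both cultures, 6 were lower and 5 higher at 50% confluence. The ubiquitin ligase gene CBLB read 1032 at 50% confluence and 2183 in the standard culture, and the Sprouty gene SPRY1 read 226 and 124. DUSP4, a phosphatase that acts on MAP kinases, was the most variable (SD 0.99, 100 to 620 over the lines). DUSP6, another MAP kinase phosphatase, read 160 to 354 in males and 100 to 239 in females and did not pass (limma, adjusted p = 0.9999).

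Among 21 tested co-receptors and ligand-processing genes, 0 passed by sex or age. Of 18 above the floor in both cultures, 12 were lower and 6 higher at 50% confluence, with a median of -0.18, against 49.3% and 50.3% over the array. The median was -0.05 with a floor of 200. The cell-surface proteoglycan genes stood at both ends, with GPC3 at 443 at 50% confluence and 2166 in the standard culture, GPC4 at 171 and 400, and SDC1 at 2659 and 1063, above all 10 lines. GPC3 was the most variable of them over the lines (SD 1.32, 176 to 2556). GPC4 had the lowest unadjusted p of the list by age. Its log2 slope was -0.66 ± 0.21 (SE) per 10 years and did not pass (limma, adjusted p = 0.999).

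Genes that growth factors are known to induce had 13 of 16 lower at 50% confluence, 4 of them over 2-fold and 0 over 2-fold higher, with a median of -0.31, the lowest of the 7 lists. Over the array 49.3% were lower, 4.75% over 2-fold lower and 4.88% over 2-fold higher, with a median of 0.01. IER2 read 714 at 50% confluence and 2510 in the standard culture, and the transcription factor gene JUNB read 295 and 878, both below all 10 lines. IER3 read 546 and 1418, and EGR1 read 391 and 785. The standard culture of male line 1 was itself the highest of the 10 lines by IER2 and EGR1, and the highest male line by JUNB and IER3. By EGR1 the 50% confluence culture was above the median of the lines, 361.5. CCND1, CCN2 and SRF were the 3 genes higher at 50% confluence. The list was also given a negative median by quantile normalization (-0.28), median centring (-0.33) and a floor of 200 (-0.29). PHLDA1 was the most variable member over the lines (SD 0.996, 100 to 617). None of 18 tested genes of this list passed by sex or age.

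Genes of the hypoxia response, which induces VEGFA, were split in direction at 50% confluence. The list also held regulators of that response, HIF1A, VHL and ARNT, of which ARNT is the constant partner of the hypoxia-inducible factors and not one of their targets. Of 16 above the floor in both cultures, 8 were lower and 8 higher. Of these, 0 were over 2-fold lower and 3 over 2-fold higher, against 4.75% and 4.88% over the array. The prolyl hydroxylase subunit gene P4HA2 read 2695 at 50% confluence and 1234 in the standard culture, BNIP3L read 2741 and 1322, and ARNT read 424 and 164. The peptide hormone gene ADM read 1908 and 3779. ADM also had the lowest unadjusted p of the list by age. Its log2 slope was 0.54 ± 0.24 (SE) per 10 years and did not pass (limma, adjusted p = 0.999). With quantile normalization 10 were lower and 6 higher. By sex and age 0 of 18 tested genes passed, PFKFB4 being among the lowest in p by sex, with 100 to 507 in males and 100 to 114 in females.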

How the data were processed

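RNA of 11 fibroblast cultures was measured on 1 array each. What the authors deposited is 1 linear intensity per probe set and array, as a whole number. Their summarising and scaling steps are not given in the sources used here. From the values, low intensities were raised to 100 before deposit, or to 90 in 2 arrays, those of male line 5 and the 50% confluence culture. The deposited scaling was kept, all values were floored at 100 and log2 was taken. Probe sets above the floor in at least 5 of 11 arrays were tested, 7333 of 12558 after 67 controls were left out. Genes came from a 2016 probe annotation.

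The model, with limma 3.58.1 (R 4.3.3; eBayes, trend on mean intensity), held sex and age as terms for the 10 standard lines. A second model added their interaction. P-values are two-sided and Benjamini-Hochberg adjusted over all 7333 probe sets, with a threshold of 0.05. Correlations used 100000 permutations. The members, lists, tests and alternatives were chosen with earlier results of these data known. Within each list, genes named are among those of largest change by harvest state, lowest p by sex or age, or largest SD. Not every such gene is named. On simulated data with 100 probe sets changed by 1 log2 and 100 by 2 log2, the sex fit recovered 44% and 90%, and the age fit, for the same change over 10 years, 79% and 99%. The sex fit also called 8 unchanged probe sets and the age fit 11. With so many probe sets changed at once the adjusted cutoff is looser than where few pass, so recovery of a lone change was not measured. The number of arrays limits the precision. The probes follow human sequences, and a sequence difference in bonobo can lower a signal.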

Additional observations from a re-analysis of the deposited data

Results flagged for a closer look

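Values of the 21 tested probe sets were examined in the 5 male and the 5 female lines, 42 groups in all, and by Dixon's criterion, the gap to the nearest line over the group's range, 1 line stood apart in 4 groups. For normally distributed values this criterion marks about 1 in 20 groups by chance. Groups with values tied at the floor do not meet that condition, and their rate was not measured. For PDGFRA 1988_at the line apart was male line 2, at 614, with the remaining males between 113 and 168. Male line 2 also stood apart for VEGFA 36101_s_at, at 213, with the remaining males between 100 and 119. FGF7 1466_s_at read 153 in female line 5 and 387 to 493 in the other female lines. MET 1609_g_at read 101 in female line 5, where the other female lines were at the floor of 100, a difference of 1 unit.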

How the results depend on the processing

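None of the 9 genes passed in any of 168 alternative values by sex, 177 by age or 159 for sex by age (limma, lowest adjusted p of 0.999, 0.771 and 0.407), and the estimate changed sign in 9, 4 and 20 of them. Over the array, 2 probe sets passed by sex, and 1 with a floor of 200, a pseudocount of 50 or all probe sets, and 0 with only those above the floor in all 11 arrays (limma, 85 at an unadjusted p under 0.05). It was 3 with no intensity trend, array weights or no covariate. Leaving out 1 line gave 1 to 2. By age 0 passed, and 1 with all probe sets. For sex by age 1 passed, and 0 by limma with quantile normalization (384 unadjusted), all probe sets (471), no intensity trend (367) or array weights (511), and 0 to 1 without 1 line. The harvest count of 592 probe sets past 2-fold was 317 with a floor of 200 and 922 with probe sets above the floor in either culture.

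Without 1 line, log2 male minus female ran from -0.23 to 0.26 for PDGFRB, from -0.29 to 0.17 for IGF1R and from -0.047 to 0.44 for VEGFA, and the age slope of FGFR1 from -0.047 to 0.24. The difference in age slope ran from -0.77 to 0.30 for PDGFRA, -0.42 to 0.42 for PDGFRB, -0.47 to 0.65 for EGFR, -0.29 to 0.42 for FGF2 and -0.42 to 0.49 for FGF7. With array weights PDGFRB stood at -0.057 by sex, and the slope difference at 0.0085 for PDGFRB and 0.11 for FGF2. It was 0.0028 for PDGFRB with quantile normalization and -0.064 for FGF7 with a floor of 200. The correlation of EGFR with MET was 0.14 without the 2 farthest lines. The causes were not tested. No paired analysis was possible because replicate numbers follow accession order and pair no animals. Values near the floor, as for EGFR, MET and HGF, limit what could be seen.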
